A study of Homo sapiens with 9 samples.

Results

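The 10 genes described here encode the stress sensors of the endoplasmic reticulum (ER), the transcription factors they activate and the proteases that release those factors: ERN1, EIF2AK3, ATF6, ATF6B, XBP1, MBTPS1, MBTPS2, CREB3, CREB3L1 and CREB3L2. They were chosen by name, each as the row with that gene name in the deposited expression values, and they are 10 of 61552 genes listed and 10 of the 16572 genes that passed a filter on low values. The cells were MDA-MB-231, an established human triple-negative breast cancer (TNBC) line, wild type by label and grown in DMEM with serum and antibiotics. The study asked which genes respond to a change in lactate production, and used 2-deoxy-glucose (2-DG), a glucose analogue that blocks glycolysis. Cells of the control group received phosphate-buffered saline (0 mM 2-DG), and the other groups received 10 mM or 20 mM 2-DG, all for 24 h, with 3 RNA-seq libraries per group and 9 in all. The libraries are called sample replicates of 1 line, and whether they came from separate cultures was not stated, so that the p-values measure only the spread between these libraries.

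When unfolded proteins accumulate in the ER lumen, IRE1 (encoded by ERN1), PERK (EIF2AK3) and ATF6 are released from the chaperone BiP and start the unfolded protein response (UPR). IRE1 cuts an intron out of the XBP1 mRNA, which shifts the reading frame so that the active XBP1 factor is made. PERK phosphorylates eIF2alpha and slows translation while ATF4 mRNA is favoured, and ATF6 travels to the Golgi, where the proteases S1P (MBTPS1) and S2P (MBTPS2) cut free its DNA-binding part. ATF6B and the CREB3 family are membrane-bound factors that are cut by the same protease pair. 2-DG also enters the early steps of N-linked glycosylation in place of mannose, and agents that disturb this glycosylation are known activators of the UPR. Activation of these proteins takes place largely after transcription, so that mRNA levels do not measure sensor activity.

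The sequence that IRE1 removes is shown because it limits what an XBP1 level can say. In the GENCODE release 29 annotation (GRCh38), the coding transcripts of XBP1 differ by a run of 26 bases in an exon at chr22:28796124-28796149 on the minus strand, which leaves a remainder of 2 when divided by 3. The run is given in capitals between the 20 bases on each side.
XBP1 mRNA around the removed run: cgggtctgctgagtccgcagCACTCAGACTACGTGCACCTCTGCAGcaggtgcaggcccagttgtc
The values were deposited per gene, so the forms with and without these 26 bases were counted together and the share of spliced XBP1 was not measured here.

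The whole-series facts that bear on these genes are few. The deposited unit was FPKM (reads scaled by gene length and by the library total), from which whole reads could be recovered, and the totals counted on genes lay between 30974968 and 40843638 per library. Across the libraries of each group, Pearson's r over genes was between 0.989 and 0.996. In replicate 1 of 10 mM 2-DG, genes whose length behind the FPKM values was over 8000 bases (3553 of those above 0 in every library) had a median log2 FPKM 0.25 above the other 10 mM libraries, against -0.010 for the 12800 shorter genes, and in replicate 2 of 10 mM the long genes were at -0.25. Control replicate 1 was at -0.19 and control replicate 2 at 0.14 for the long genes, and the 20 mM libraries were between -0.050 and 0.069. ERN1, EIF2AK3, ATF6, MBTPS1, MBTPS2 and CREB3L2 are over 8000 bases in these files, so their values are also given without replicate 1 of 10 mM where this ended or made a call. Such a fit keeps replicate 2 of 10 mM, which deviated the other way, so it is not free of the length deviation. The median log2 ratio of 10 mM to control over long genes was -0.0065 with replicate 1 and -0.091 without it. For the shorter genes it was -0.038 and -0.036. The labelled line was checked against its markers: VIM was at 285 ± 28.8 FPKM (SD, n = 3), AXL at 117 ± 8.15 FPKM and CD44 at 69.8 ± 3.94 FPKM in the control, PTPRC, a leukocyte marker, was at 0.0297 FPKM, and ESR1 and PGR were below that. ERBB2 (8.81 ± 0.376 FPKM) and EPCAM (3.75 ± 0.705 FPKM) were low beside VIM but not near 0.

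Differences were tested with limma on log2(FPKM + 1) over all 16572 genes, and a gene passed at a Benjamini-Hochberg adjusted p under 0.05. At 10 mM 2-DG, 4 of the 10 genes passed as higher than in the control (ERN1, EIF2AK3, XBP1 and CREB3), where 12.1% of all tested genes did, and 2 as lower (MBTPS1 and CREB3L1), where 17.5% did. At 20 mM, 5 passed as higher, with ATF6 joining the 4, against a background of 15.4%, and 3 as lower, with MBTPS2 joining the pair, against 21.6%. The libraries of the 2 groups did not overlap for 8 of the 10 genes at 10 mM (40.5% of all genes) and for 9 at 20 mM (53.3%). The thresholds named in the study were an unadjusted p under 0.05 and a change of more than 2-fold. Under them, 0 of the 10 genes were called with limma at either dose, beside 1.74% and 2.92% of all genes. With limma-voom on the recovered reads 0 of the 10 were called too, and the share of all genes was not counted for that fit. With limma and 1.5-fold in place of 2-fold, XBP1 was called at 10 mM (7.48% of all genes) and XBP1 and ERN1 at 20 mM (10.7%). At an unadjusted p under 0.05 alone, 8 and 9 of the genes passed, beside 40.4% and 46% of all genes, and at 10 mM an adjusted p under 0.01 left 3 of the 10, beside 16.4%. Over the 10 genes the log2 fold changes had a median of 0.10 with 10 mM and 0.082 with 20 mM, against -0.011 and -0.021 over all tested genes. The 2 comparisons share the control libraries, and in bulk RNA fewer cells with a transcript and less of it per cell cannot be told apart.

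**Figure D1:**
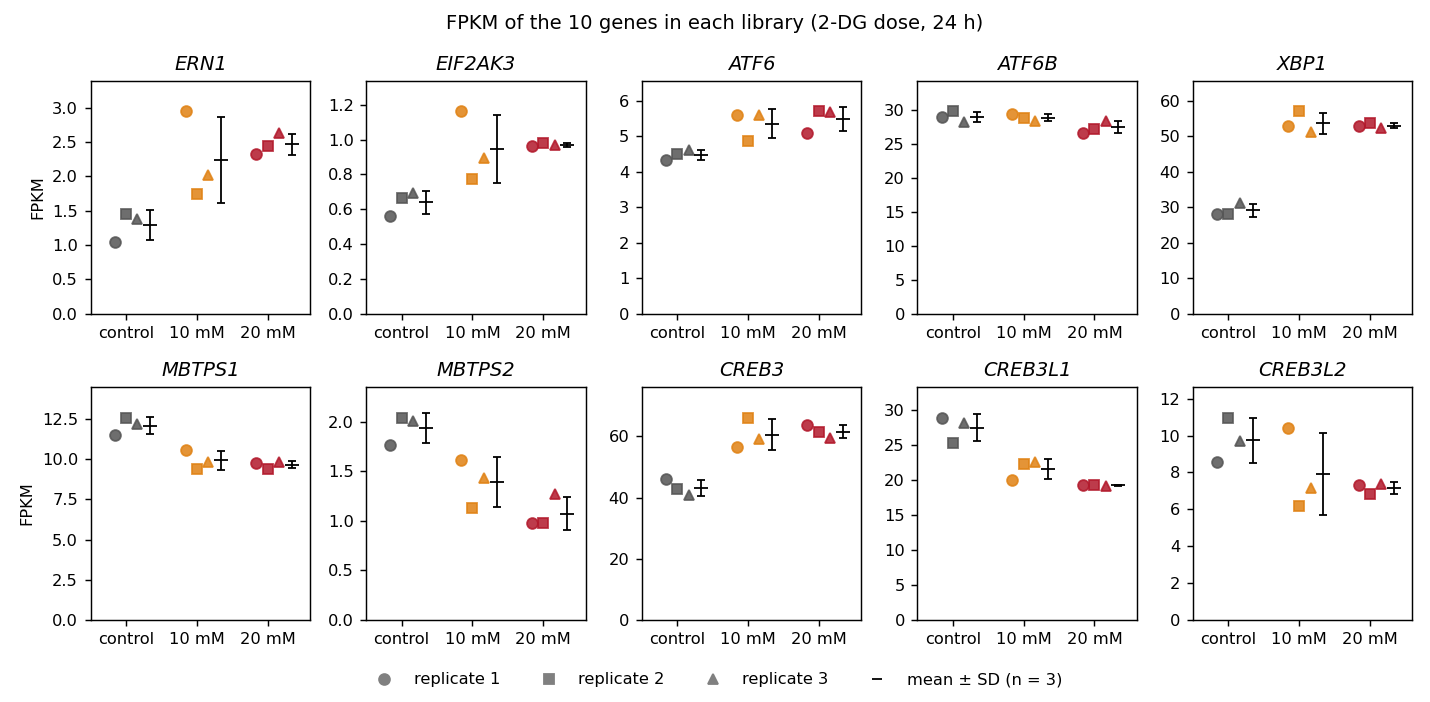
FPKM of each of the 10 genes (vertical axes from 0, each on its own scale) in the control, 10 mM and 20 mM 2-DG libraries; symbols mark replicates 1 to 3 and the black bar is the mean ± SD of 3 libraries. The treated libraries of XBP1 and CREB3 sit above every control library and those of MBTPS1 and CREB3L1 below, while ERN1, EIF2AK3 and CREB3L2 spread most at 10 mM, with replicate 1 highest.

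In the control, CREB3 had the highest level per length at 43.2 ± 2.601 FPKM (SD, n = 3). XBP1 (29.1 ± 1.81 FPKM), ATF6B (29.1 ± 0.755 FPKM) and CREB3L1 (27.5 ± 1.93 FPKM) followed with overlapping libraries. MBTPS1 (12.1 ± 0.556 FPKM), CREB3L2 (9.74 ± 1.22 FPKM), ATF6 (4.48 ± 0.139 FPKM), MBTPS2 (1.94 ± 0.153 FPKM), ERN1 (1.29 ± 0.215 FPKM) and EIF2AK3 (0.640 ± 0.0672 FPKM) came next, each without overlap with its neighbour in this order. The kinases that sense ER stress were thus the lowest of the set. At 20 mM the order was kept for the first 7 genes, and ERN1 stood above MBTPS2, whose libraries then overlapped with those of EIF2AK3. The low places of the sensors may depend on the length used. The files' values correspond to lengths of 19153 bases for ERN1, 20691 for EIF2AK3 and 14263 for ATF6, which are 1.76, 3.81 and 1.81 times the exon bases in GENCODE 29. Rescaled to the GENCODE 29 exon lengths, the control means were 2.27 FPKM for ERN1, 2.44 FPKM for EIF2AK3 and 8.10 FPKM for ATF6, the first pair above MBTPS2. All recovered reads were kept in this rescaling, including any from bases outside the GENCODE 29 exons. These means may therefore be too high, and the order of ERN1, EIF2AK3 and MBTPS2 is not settled. The ratio of a gene's mean FPKM between groups does not depend on the length used, whereas the fitted change of log2(FPKM + 1) does.

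Of the sensors, ERN1 and EIF2AK3 rose at both doses and ATF6 at 20 mM, ERN1 by the largest factor and ATF6 by the smallest. ERN1 encodes IRE1alpha, a kinase and endoribonuclease, and lies at chr17:64039142-64130819 on the minus strand (GENCODE 29, GRCh38, as are all positions below). Its level was 1.05, 1.45 and 1.37 FPKM in control replicates 1, 2 and 3, then 2.94, 1.75 and 2.01 FPKM at 10 mM and 2.33, 2.45 and 2.63 FPKM at 20 mM. All 6 treated libraries were above all control libraries, with the widest spread at 10 mM, where replicate 1 stood highest. The mean FPKM was 1.73 times the control at 10 mM and 1.91 times at 20 mM, and the fitted log2 fold changes, which the added 1 makes smaller at this level, were 0.49 (SE 0.14, adjusted p = 0.0233) and 0.60 (adjusted p = 0.0066). Without replicate 1 of 10 mM the 10 mM change was 0.33 (adjusted p = 0.0495), and without control replicate 1 it was 0.41 and no longer passed (adjusted p = 0.0797). The 10 mM call was also lost with no filter on low genes (adjusted p = 0.0666) and with only the 2 groups compared in the fit (adjusted p = 0.055). The 20 mM change passed in all leave-outs, between 0.52 and 0.65. Its paralog ERN2, an epithelial form of IRE1, had 0.00192 FPKM in the control and did not pass the filter.

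EIF2AK3, which encodes PERK, lies at chr2:88556741-88627576 on the minus strand. It had 0.563, 0.665 and 0.690 FPKM in the control, 1.16, 0.776 and 0.897 FPKM at 10 mM and 0.961, 0.983 and 0.966 FPKM at 20 mM. No treated library overlapped with the control, and the 20 mM libraries had a coefficient of variation (CV) of 1.17%. These levels rest on 414 to 504 reads per control library and 616 to 809 per 20 mM library. The mean was 1.48 and 1.52 times the control, and the log2 fold changes of 0.24 (SE 0.081, adjusted p = 0.0485) and 0.27 (adjusted p = 0.0282) were close to the threshold. The call at 10 mM was lost in 8 of the 9 fits that left out 1 library, without each library except replicate 2 of 10 mM, with adjusted p-values from 0.0685 to 0.139. The largest drop in size followed the removal of replicate 1 of 10 mM (log2 fold change 0.16, adjusted p = 0.129). The call at 20 mM was lost in 5 of the 9, without control replicates 1 or 2 or any 20 mM library (adjusted p from 0.0582 to 0.0888). With limma-voom, which tests the recovered reads and adds no 1 to the FPKM, the changes were 0.54 (adjusted p = 0.0115) and 0.61 (adjusted p = 0.00456). The call was lost with no filter on low genes at both doses (adjusted p = 0.161 and 0.106), and at 10 mM with a pseudocount of 0.1 (0.49, adjusted p = 0.0613) and with only the 2 groups compared (adjusted p = 0.0979). Of its exon bases, 14.4% are shared with AC104134.1 on the opposite strand, and whether the counting used the strand is not given in the sources used here.

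ATF6, the membrane-bound factor that is also a sensor, lies at chr1:161766294-161964070 on the plus strand. It was at 4.34, 4.49 and 4.61 FPKM in the control, at 5.60, 4.87 and 5.60 FPKM with 10 mM and at 5.09, 5.70 and 5.67 FPKM with 20 mM 2-DG. Every treated library was above every control library, although the steps were small beside those of ERN1. The means were 1.20 and 1.22 times the control. The log2 fold change of 0.24 at 20 mM passed (SE 0.079, adjusted p = 0.0365), and that of 0.21 at 10 mM did not (adjusted p = 0.0709). The 10 mM value did pass with median-ratio scaling (adjusted p = 0.032), with upper-quartile scaling (adjusted p = 0.024), with limma-voom (adjusted p = 0.0391) and without replicate 2 of 10 mM (0.27, adjusted p = 0.0325). The 20 mM call was lost in 5 of 9 leave-outs, without any of the control libraries or 20 mM replicates 2 or 3, where the log2 fold change was still between 0.22 and 0.26 (adjusted p from 0.0608 to 0.122).

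ATF6B, the close relative of ATF6 with a weaker activating part, lies at chr6:32115264-32128253 on the minus strand. Its level was 29.02, 29.8 and 28.3 FPKM in the control, 29.5, 28.8 and 28.4 FPKM at 10 mM and 26.7, 27.3 and 28.5 FPKM at 20 mM. The libraries of all groups overlapped and no test passed. The 95% intervals of the log2 fold change were -0.12 to 0.10 at 10 mM and -0.19 to 0.034 at 20 mM, so a change of the size seen for ERN1 or XBP1 lay outside them. The sign of these small differences turned with the scaling of the libraries. ATF6B shares 7.96% of its exon bases with AL662884.2 and 1.96% with TNXB on the same strand.

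XBP1 had the largest fitted change of the 10 genes on the log2(FPKM + 1) scale at both doses, while at 20 mM ERN1 stood above it by mean FPKM, with limma-voom (0.95 against 0.87) and with a pseudocount of 0.1 (0.90 against 0.86). XBP1 encodes the basic leucine zipper factor downstream of IRE1 and lies at chr22:28794555-28800597 on the minus strand. Its level was 28.1, 28.01 and 31.2 FPKM in the control, 52.8, 57.0 and 51.3 FPKM at 10 mM and 52.8, 53.8 and 52.3 FPKM at 20 mM. The lowest treated library was 51.3 FPKM and the highest control library 31.2 FPKM, and the CV at 20 mM was 1.46%. XBP1 rose to 1.85 times the control at 10 mM (log2 fold change 0.86, SE 0.061, adjusted p = 1.08e-05) and to 1.82 times at 20 mM (0.84, adjusted p = 7.04e-06), and it passed in every leave-out, between 0.82 and 0.91 at 10 mM and between 0.82 and 0.89 at 20 mM. Between the doses the log2 fold change was -0.018 with a 95% interval from -0.16 to 0.12. These levels rest on 3021 to 3238 reads per control library and at least 4954 per 20 mM library.

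The promoter of XBP1 is shown because it holds the only match to an ER stress response element in the windows of the 10 genes. ERN1, EIF2AK3 and CREB3 also passed as higher at both doses, and their windows held no match. Windows of 250 bases before to 50 bases after the annotated starts (RefSeq, GRCh38.p14) were found for all 10 genes, 12 windows in all, and searched on both strands for ERSE (CCAAT, 9 bases, CCACG), ERSE-II (ATTGG, 1 base, CCACG), UPRE (TGACGTGG), CRE (TGACGTCA) and CARE (TGATGNAAN). The bases outside the gene model at chr22:28800598-28800819, minus strand, are given with the ERSE match at -52 to -34 in capitals.
XBP1 promoter: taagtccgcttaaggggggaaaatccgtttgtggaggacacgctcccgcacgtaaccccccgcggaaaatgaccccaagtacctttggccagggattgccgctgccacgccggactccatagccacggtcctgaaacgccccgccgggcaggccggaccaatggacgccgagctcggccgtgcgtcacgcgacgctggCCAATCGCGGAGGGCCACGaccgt
The ERSE letters occurred in 27 of 35116 windows of this length in the table (0.0769%), ERSE-II in 0.0541%, UPRE in 0.729%, CRE in 1.85% and CARE in 3.61%. CREB3L2 was the other gene with a match, to CRE at -179 to -172, shown in capitals in its bases at chr7:138002087-138002336, minus strand.
CREB3L2 promoter: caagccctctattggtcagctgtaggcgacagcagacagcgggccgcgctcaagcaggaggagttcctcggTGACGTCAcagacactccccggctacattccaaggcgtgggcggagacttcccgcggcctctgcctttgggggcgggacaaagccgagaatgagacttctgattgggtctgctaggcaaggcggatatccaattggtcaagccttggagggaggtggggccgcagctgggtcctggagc
The second window of CREB3L2 also held a CARE match, at 16 to 24 bases after its start, and the windows of the other 8 genes held none of these letters. The second windows of CREB3L2 and XBP1 and the only windows of ERN1, CREB3 and CREB3L1 lay inside the gene model. For ERN1, CREB3 and CREB3L1, bases before the gene model were therefore not searched. Such a match is a description of the sequence, and binding was not measured.

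Both proteases passed as lower at 20 mM. At 10 mM both had lower means, and only MBTPS1 passed. MBTPS1 encodes S1P, a serine protease of the Golgi that makes the first cut in ATF6, and lies at chr16:84053761-84116906 on the minus strand. It was at 11.5, 12.6 and 12.2 FPKM in the control, at 10.6, 9.42 and 9.82 FPKM with 10 mM and at 9.78, 9.39 and 9.84 FPKM with 20 mM 2-DG. All treated libraries lay below the lowest control library. MBTPS1 fell by 17.9% at 10 mM (log2 fold change -0.26, SE 0.064, adjusted p = 0.0131) and fell by 20.1% at 20 mM (-0.30, adjusted p = 0.00556). The 10 mM call was lost without control replicate 2 (-0.23, adjusted p = 0.0524).

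MBTPS2 encodes S2P, the metalloprotease that makes the second cut within the membrane, and lies at chrX:21839636-21885424 on the plus strand. It had 1.76, 2.04 and 2.00 FPKM in the control, 1.62, 1.12 and 1.43 FPKM at 10 mM and 0.978, 0.972 and 1.26 FPKM at 20 mM. No treated library reached the lowest control library, and the 10 mM and 20 mM libraries overlapped. MBTPS2 fell by 44.6% at 20 mM (log2 fold change -0.50, SE 0.10, adjusted p = 0.00384), the largest decrease in the set. At 10 mM the mean differed by -28.1% and the test did not pass (-0.30, adjusted p = 0.0516), although it did without replicate 1 of 10 mM (-0.37, adjusted p = 0.0324), with limma-voom (-0.50, adjusted p = 0.0188) and with at least 10 reads required in every library (adjusted p = 0.0336). Its levels rest on 271 to 374 reads per library at 20 mM, and 12.2% of its exon bases are shared with YY2 on the same strand, so part of these reads may have been assigned to either gene.

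The CREB3 family split, with CREB3 higher and CREB3L1 lower. CREB3, also called Luman, is an ER-bound factor linked to Golgi stress and secretion, and lies at chr9:35732335-35737004 on the plus strand. Its level was 46.0, 42.6 and 40.9 FPKM in the control, 56.5, 66.2 and 59.2 FPKM at 10 mM and 63.6, 61.4 and 59.5 FPKM at 20 mM. Every treated library was above every control library, and the doses overlapped. CREB3 rose to 1.40 times the control at 10 mM (log2 fold change 0.48, SE 0.071, adjusted p = 0.00085) and 1.43 times at 20 mM (0.50, adjusted p = 0.000453), with leave-outs between 0.41 and 0.55. It shares 7.3% of its exon bases with GBA2 and 3.21% with TLN1 on the opposite strand.

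CREB3L1, also called OASIS, is known for control of collagen and secretory genes in bone and other matrix-producing cells, and lies at chr11:46277661-46321422 on the plus strand. It was at 28.97, 25.3 and 28.2 FPKM in the control, at 20.0, 22.3 and 22.6 FPKM with 10 mM and at 19.3, 19.3 and 19.1 FPKM with 20 mM 2-DG. The groups did not overlap, neither between 2-DG and control nor between the doses. CREB3L1 fell by 21.3% at 10 mM (log2 fold change -0.33, SE 0.068, adjusted p = 0.00521) and fell by 29.9% at 20 mM (-0.49, adjusted p = 0.000404). The CV at 20 mM was 0.496%, the lowest of any gene and group in the set.

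CREB3L2, also called BBF2H7 and known for its part in cartilage secretion, lies at chr7:137874979-138002067 on the minus strand. It had 8.55, 10.98 and 9.68 FPKM in the control, 10.4, 6.20 and 7.13 FPKM at 10 mM and 7.31, 6.80 and 7.35 FPKM at 20 mM. Replicate 1 of 10 mM fell among the control libraries and was 0.64 (log2) above the other 10 mM libraries, while the 20 mM libraries were all below the control. Neither dose passed the test, with log2 fold changes of -0.29 (SE 0.15, adjusted p = 0.183) and -0.39 (adjusted p = 0.0692). Without that library, the 10 mM change was -0.48 (adjusted p = 0.00899) and the 20 mM change of -0.39 passed (adjusted p = 0.00908). CREB3L2 is a long gene here, and the long genes as a whole were lower at 10 mM in that fit. The 20 mM change also passed without replicate 2 of 10 mM (adjusted p = 0.0362), with only the 2 groups compared in the fit (adjusted p = 0.00888) and with limma-voom (-0.44, adjusted p = 0.0301).

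**Figure D2:**
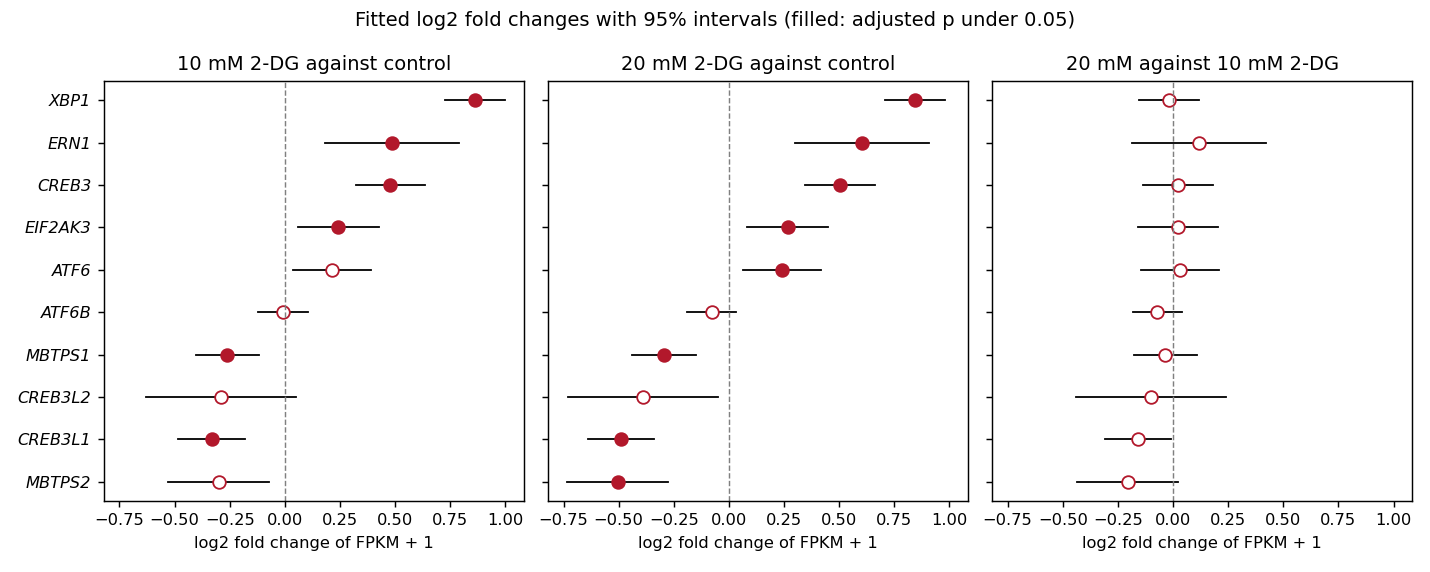
Log2 fold changes of FPKM + 1 from limma (points) with 95% intervals (lines) for the 10 genes in the 3 comparisons; filled points passed an adjusted p of 0.05. XBP1 is farthest to the right at both doses and MBTPS2 and CREB3L1 farthest to the left at 20 mM, and no point is filled between the doses.

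Raising the dose from 10 mM to 20 mM was not followed by a change that passed in any of the 10 genes, nor in any of the 16572 genes tested (0%), with limma or with limma-voom. At an unadjusted p under 0.05, 1139 genes in all (6.87%) and 1 of the 10 passed. That gene was CREB3L1, at -0.16 on the log2 scale (adjusted p = 0.716), and it was also the 1 gene of the 10 whose 10 mM and 20 mM libraries did not overlap, where 11.9% of all genes did not. Under the study's thresholds 0 of the 10 genes and 1 of all genes (0.00603%) were called. The intervals were narrowest for ATF6B (-0.18 to 0.042) and XBP1, and widest for CREB3L2 (-0.44 to 0.24) and ERN1 (-0.19 to 0.42). For CREB3L2 a dose difference as large as its fitted change against the control lies inside that interval. MBTPS2 was at -0.20 with an interval of -0.43 to 0.024.

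Ratios of related genes within a library do not depend on how libraries are scaled, and 3 were compared between the 6 treated and the 3 control libraries with exact two-sided permutation tests (84 splits, smallest possible p = 0.0119). The ratio of ATF6 to ATF6B was 0.154 ± 0.00743 in control libraries, 0.185 ± 0.0146 with 10 mM and 0.200 ± 0.00921 with 20 mM (SD, n = 3). The lowest treated ratio was 0.169 and the highest control ratio 0.163, so the groups did not overlap. It was 1.25 times the control over both doses (log2 difference 0.32, exact permutation p = 0.0119, adjusted p = 0.0357 over the 3 ratios). ATF6 is a long gene in these files and ATF6B a short one. The median log2 ratio to control of long and short genes was -0.0065 and -0.038 at 10 mM and -0.033 and -0.056 at 20 mM, and the part of length in this ratio was not tested.

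The ratio of MBTPS1 to MBTPS2 was 6.27 ± 0.239 in control libraries, 7.26 ± 0.978 with 10 mM and 9.15 ± 1.20 with 20 mM. Replicate 1 of 10 mM and control replicate 1 were both at 6.54, and the other 5 treated libraries were higher. The log2 difference was 0.37 (exact permutation p = 0.0357, adjusted p = 0.0536), which did not pass, and with 1 added to both FPKM values it was 0.12 (adjusted p = 0.268). The ratio of CREB3L1 to CREB3L2 was 2.87 ± 0.543, 2.90 ± 0.869 and 2.70 ± 0.125 and overlapped in all groups (log2 difference -0.045, exact permutation p = 0.845). Both of these genes had lower means with 2-DG, and their ratio was not resolved against the spread of CREB3L2.

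**Figure D3:**
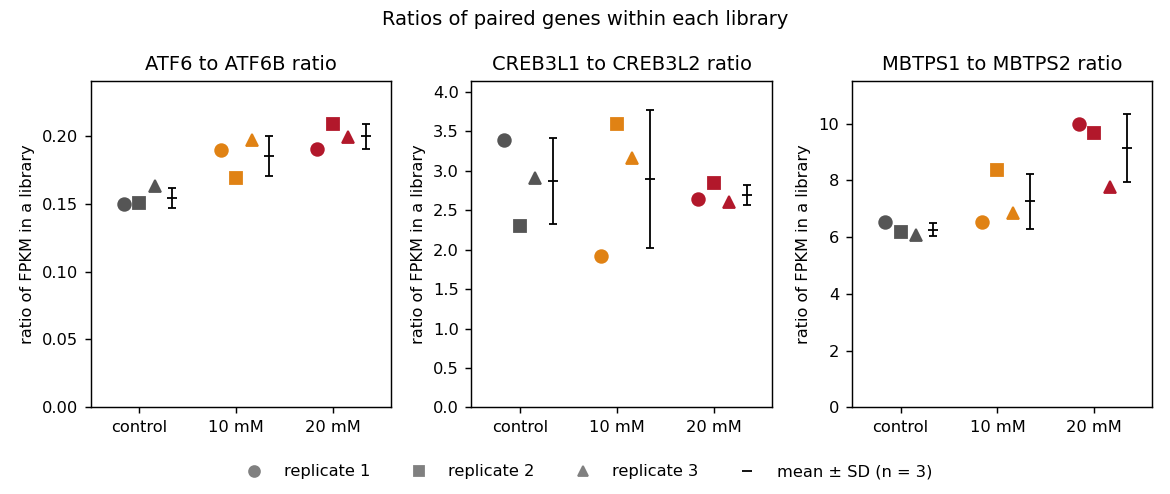
Ratio of the FPKM values of 2 related genes within each library (vertical axes from 0), for control, 10 mM and 20 mM 2-DG; symbols mark replicates 1 to 3 and the black bar is the mean ± SD of 3 libraries. The ATF6 to ATF6B ratio is above all control libraries in the 6 treated libraries, and the CREB3L1 to CREB3L2 ratio overlaps in all groups.

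Replicates of 1 group did not spread alike for the 10 genes. The median CV over the genes was 6.61% in control libraries, 8.05% with 10 mM and 3.31% with 20 mM, with the highest values at 10 mM for ERN1 (28.2%) and CREB3L2 (27.8%). In replicate 1 of 10 mM, ERN1 stood 0.65, CREB3L2 0.64, EIF2AK3 0.48 and MBTPS2 0.35 above the other 10 mM libraries on the log2 scale, whereas XBP1 stood at -0.036, CREB3 at -0.15 and CREB3L1 at -0.17. ERN1, EIF2AK3, CREB3L2 and MBTPS2 are long genes here, and XBP1, CREB3 and CREB3L1 are short ones. ATF6 (0.10) and MBTPS1 (0.14), both long, deviated less. The part of RNA quality or library preparation in these deviations was not tested.

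**Figure D4:**
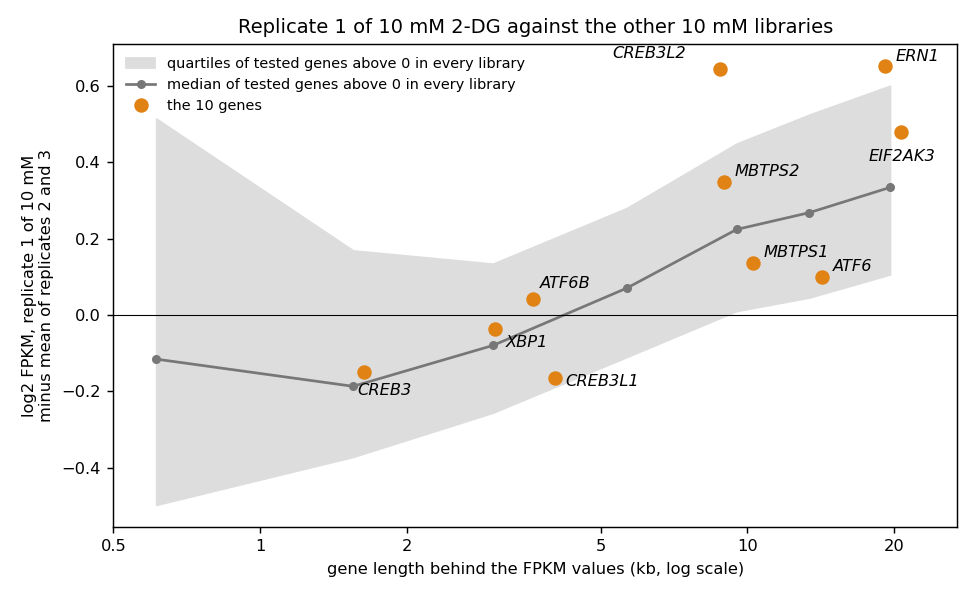
Deviation of replicate 1 of 10 mM 2-DG from the mean of the other 10 mM libraries (log2 FPKM, vertical axis) against the gene length behind the FPKM values (kb, log axis); the grey line and band are the median and quartiles of the tested genes above 0 in every library, in bins of length, and orange points are the 10 genes. The median rises from the bin near 1.5 kb to the longest bin, and ERN1 and CREB3L2 lie above the band.

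Across the 9 libraries, Pearson's r of log2(FPKM + 1) was 0.99 between ERN1 and EIF2AK3, 0.95 between XBP1 and CREB3 and -0.97 between MBTPS1 and CREB3. These are descriptions over 3 control and 6 treated libraries, in which any genes that differ between the groups correlate, and ERN1 and EIF2AK3 also share the deviation of long genes. Among 10426 tested genes with a mean of at least 1 FPKM, EML6, CUTALP and ANKRD44 followed ERN1 most closely (r = 0.99 for each). DYRK1A, TMTC2 and ZNF121 were closest to EIF2AK3 (r = 0.99 for each), SEMA3A (0.98), AFTPH (0.98) and BLZF1 (0.97) to ATF6, and GLRX, RRAGC and RNF149 to XBP1 (r = 0.99 for each). The lengths of the 3 genes closest to ERN1 were 16317, 8084 and 12826 bases, against a median of 5066 bases over the genes searched. Those closest to XBP1 had 6229, 5116 and 5326 bases.

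The genes downstream of each branch and the partners of the sensors were then counted in lists written from general knowledge. Earlier results of these data were known when the lists were written, so the counts are a description. Of all tested genes, 12.1% were higher and 17.5% lower at 10 mM, and 15.4% were higher and 21.6% lower at 20 mM. Which branch changed a listed gene was not tested. Of 10 ATF6 targets, 10 rose at both doses, their log2 fold changes having medians of 1.70 and 1.84. The ER chaperone gene HSPA5, which encodes BiP, went from 245 ± 8.27 to 1282 ± 14.3 FPKM at 20 mM (log2 fold change 2.38, adjusted p = 1.43e-07), and HYOU1, a chaperone of the same compartment, from 71.3 ± 3.68 to 362 ± 7.08 FPKM (2.33). SEL1L, a part of the ER degradation complex (1.64), and CALR, the lectin chaperone calreticulin (1.60), had the smallest changes of the list. All of these were larger than the 0.24 of ATF6 itself or the 0.84 of XBP1.

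Of 10 XBP1 targets, 7 rose at each dose and 3 did not pass, with medians of 0.56 and 0.64. DNAJB9, an ER co-chaperone, went from 10.9 ± 1.28 to 43.1 ± 1.43 FPKM at 20 mM (log2 fold change 1.89, adjusted p = 5.26e-07) and DNAJB11 from 4.97 ± 0.122 to 14.3 ± 0.594 FPKM (1.36). SEC24D, a coat protein of ER export vesicles, was at 0.15 (adjusted p = 0.423) and SPCS3, a signal peptidase subunit, at 0.18 (adjusted p = 0.284). The third that did not pass was SEC31A at 0.23 (adjusted p = 0.0716), named after its values were seen. Of 9 mRNAs known as direct substrates of the IRE1 nuclease, 2 rose and 2 fell at each dose, with medians of -0.036 and -0.047, the latter being 0.0076 with median-ratio scaling. For a list of 9 genes, these counts are near the shares over all tested genes. SCARA3 fell from 5.03 ± 0.434 to 1.41 ± 0.0299 FPKM at 20 mM (-1.32, adjusted p = 3.57e-06), and BLOC1S1, the substrate used most often as a readout, was at -0.23 (adjusted p = 0.258). PER1 (0.48) and COL6A1 (0.19) were those that rose, and PDGFRB, named after its values were seen, was the other that fell (-0.20).

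Of 10 targets of PERK and ATF4, 9 rose at 10 mM and 10 at 20 mM, with medians of 0.81 and 0.85. TRIB3, a pseudokinase induced in the integrated stress response, went from 29.7 ± 3.88 to 114 ± 3.21 FPKM at 20 mM (log2 fold change 1.92, adjusted p = 5.1e-07) and DDIT3, which encodes CHOP, from 27.2 ± 3.09 to 77.1 ± 2.37 FPKM (1.47). ATF3 had the smallest change (0.47, adjusted p = 0.0146) and was the 1 that did not pass at 10 mM, and VLDLR was at 0.58. Other eIF2alpha kinases feed the same targets. EIF2AK4, which encodes GCN2, fell at 20 mM from 7.53 ± 0.889 to 5.30 ± 0.382 FPKM (-0.43, adjusted p = 0.0128). It also passed as lower at 10 mM (-0.36, adjusted p = 0.0374). EIF2AK1 passed as lower at 20 mM only (-0.22, adjusted p = 0.0321), and EIF2AK2 did not pass at either dose. Both were named after their values were seen. The part of these kinases in the changes of the targets was not tested.

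Among 15 tested regulators and partners of the sensors, 7 rose and 4 fell at 20 mM (7 and 3 at 10 mM), with a median of -0.091. The 7 included HSPA5 and DNAJB9, whose proteins act on the sensors. The lists share some genes, so their counts are not separate. HSPA5 and SDF2L1 were also counted with the ATF6 targets, DNAJB9 with the XBP1 targets and PPP1R15A with the targets of PERK and ATF4. SDF2L1 and PPP1R15A were named after their values were seen. SEC24D is in the lists of XBP1 targets and CREB3 family targets. PTPN1, a phosphatase of the ER membrane, fell from 30.2 ± 0.571 to 21.6 ± 0.679 FPKM (log2 fold change -0.47, adjusted p = 0.000269). The list of partners and other substrates of S1P and S2P held 9 tested genes, of which 4 fell and 0 rose at each dose, with medians of -0.098 and -0.15. INSIG1, the retention factor of SREBP, fell most, from 38.1 ± 2.07 to 16.6 ± 0.839 FPKM at 20 mM (-1.15, adjusted p = 1.64e-06). SREBF1, which encodes a substrate of both proteases, fell by 0.35 on the log2 scale (adjusted p = 0.00298), SCAP was at 0.051 and SPRING1, a cofactor of S1P, at 0.17 (adjusted p = 0.225). Of 8 genes known as targets of the CREB3 family, 4 rose and 4 did not pass at each dose, with medians of 0.23 and 0.30. FKBP14, an ER prolyl isomerase, rose from 2.56 ± 0.158 to 5.94 ± 0.205 FPKM (0.96, adjusted p = 2.51e-05) and the golgin GOLGB1 by 0.63, while SEC23A was at -0.16 (adjusted p = 0.474) and COL1A1 at -0.071 (adjusted p = 0.53).

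**Figure D5:**
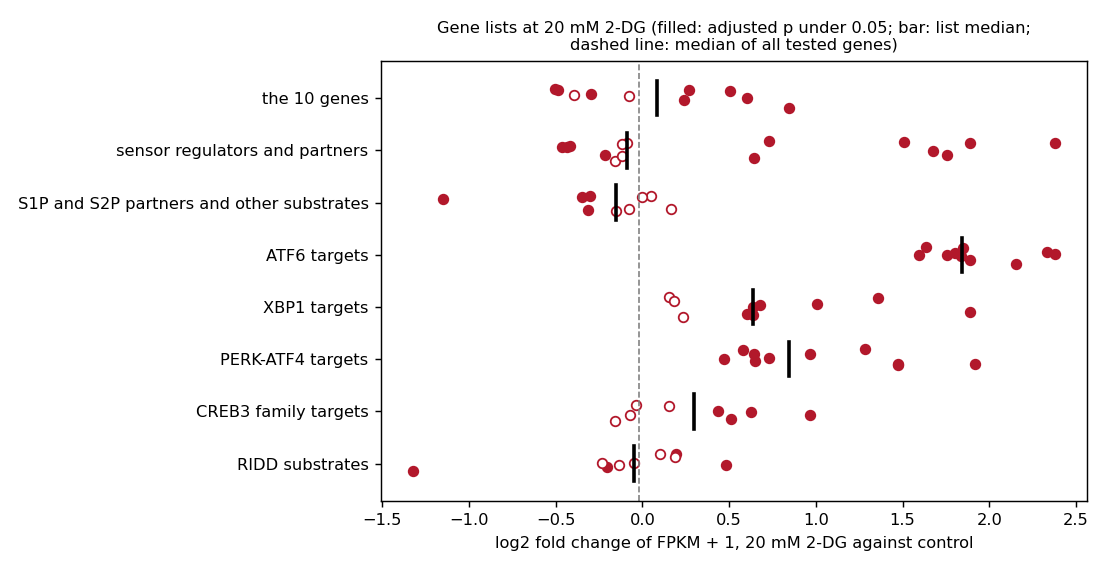
Log2 fold change of FPKM + 1 at 20 mM 2-DG against control (horizontal axis) for the tested members of each list, with filled points past an adjusted p of 0.05, a black bar at the list median and a dashed line at the median of all tested genes (-0.021). All 10 ATF6 targets lie right of 1.5, beyond each of the 10 sensor, factor and protease genes, which lie between -0.50 and 0.84.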

How the data were processed

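Total RNA was extracted with a Qiagen kit and libraries were made with a SMARTER mRNA kit, per the labels. The authors deposited FPKM values, 1 file per library, with 61552 genes. The aligner, the counting tool and its use of strand are not given in the sources used here, and the submitters' processing notes name GRCh38 (hg38). Lactate-treated libraries are not analysed here.

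The members and the gene lists were chosen with earlier results of these data known. Whole reads were recovered by searching the library total and gene lengths that make each value a whole read; this succeeded for 32806 of 32806 genes above 0, and the library totals missed a whole number by at most 0.000451. Genes were tested if 3 or more libraries held 10 or more reads (scaled to the median total) and all libraries together 15 or more. limma 3.58.1 in R 4.3.3 was run on log2(FPKM + 1), with all 9 libraries in 1 fit, an eBayes trend, and Benjamini-Hochberg adjustment over 16572 genes. The study's own test models counts. As FPKM values were deposited, the log-scale test was the main one here and recovered reads were tested with limma-voom as an alternative. The limma steps were also run on simulated counts, with the same dispersion for all genes and libraries and with changes at 20 mM only. That setting lacked the length deviations of these libraries, so it does not show how the tests perform on them. Named genes were the 10 members, at most 4 per list (those with the largest and smallest log2 fold change at 20 mM 2-DG) and, for ERN1, EIF2AK3, ATF6 and XBP1, the 3 genes with the highest correlation. The lists were described by counts and medians. Ratios were compared by exact permutation of libraries. Recovered reads differed between replicates by 4.66 to 56.7 times the sampling variance, so no pair was taken for 1 library. Alternatives varied the pseudocount (0.1), the filter, the scaling, the replicate block, the groups in the fit, the thresholds (1.5-fold or an adjusted p of 0.01), limma-voom and each library left out. Sequences came from RefSeq (GRCh38.p14) and GENCODE 29 tables, read with Python 3.11.15.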

Additional observations from a re-analysis of the deposited data

How the results depend on the processing

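The number of members past the adjusted p stayed at 4 to 8 at 10 mM (6 as reported) and 6 to 9 at 20 mM (8 as reported) under every scaling, filter, fit and leave-out tried, apart from a stricter adjusted p of 0.01, which left 3 at 10 mM. With a threshold of 1.5-fold in place of 2-fold, 1 member was called at 10 mM and 2 at 20 mM, beside 7.48% and 10.7% of all tested genes. Members' fold changes kept their direction and call in 141 of the refits at 10 mM, lost the call in 17, gained it in 8 and turned sign in 4; at 20 mM these numbers were 152, 13, 4 and 1, and between the doses 163 were unmoved and 7 turned sign. Sign turned only for differences that did not pass. ATF6B at 10 mM was 0.0292 with median-ratio and 0.0557 with upper-quartile scaling and -0.0250 to 0.0111 over the leave-outs, and at 20 mM 0.0144 with upper-quartile scaling. Between the doses, XBP1 was 0.0119 with upper-quartile scaling, and the leave-out ranges that crossed 0 were EIF2AK3 -0.0399 to 0.1020, ATF6 -0.0256 to 0.0753, XBP1 -0.0495 to 0.0251, MBTPS1 -0.0686 to 0.0073, CREB3 -0.0244 to 0.0885 and CREB3L2 -0.2401 to 0.0909. The ATF6 to ATF6B ratio was 0.2925 to 0.3563 over the leave-outs, with adjusted p between 0.0536 and 0.107 because fewer libraries allow fewer splits, and 0.3169 with the replicate block (adjusted p = 0.375 from an exact sign-flip test that cannot pass with 3 pairs). The MBTPS1 to MBTPS2 ratio was 0.1238 with 1 added to both values. The CREB3L1 to CREB3L2 ratio ranged from -0.1934 to 0.0848. Same-numbered libraries did not deviate together (r from -0.406 to 0.293), so the numbers were not taken to pair the samples. The highest r were between different numbers, 0.521 for control replicate 1 with replicate 2 of 10 mM and 0.488 for control replicate 2 with replicate 1 of 10 mM. The source of these shared deviations was not tested. With the replicate block, 4 members passed at 10 mM, 6 at 20 mM and 0 between the doses. ERN1 at 10 mM (adjusted p = 0.0517), EIF2AK3 (0.0855 and 0.0549) and ATF6 at 20 mM (0.0635) then missed the threshold. Among list medians at 20 mM, that of the sensor regulators was -0.0363 and that of the S1P and S2P partners -0.1137 with median-ratio scaling, which also turned that of the IRE1 substrates to 0.0076. A pseudocount of 0.1 gave -0.2025 at 20 mM for the S1P and S2P partners. It gave 1.1034 at 10 mM and 1.3662 at 20 mM for the PERK and ATF4 targets, since the smaller added value compresses low genes less. The other causes were not tested. EIF2AK3 and MBTPS2 had the fewest reads, down to 414 and 271 in a library.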
